A study of Homo sapiens with 17 samples.

Results

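The spliceosomal snRNA genes of RNA polymerase II were represented by 10 genes: RNU1-1, RNU1-2, RNU1-3 and RNU1-4 for U1, RNU4-1 and RNU4-2 for U4, RNU5A-1 and RNU5B-1 for U5, and RNU11 and RNU12 for U11 and U12. Sites were taken where they lay on the gene's strand, inside its GENCODE release 29 span on GRCh38 or up to 1000 bp past its end. The sites of these genes were taken by position, whatever their values. They were 154 distinct sites of 158141 in all, 39 of them within a gene and 115 past its end, and all 10 genes had at least 1 site in each series of measurements.

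The measurements came from TV-PRO-seq in HEK293, a human embryonic kidney cell line. In this assay permeabilised cells let engaged polymerases add labelled nucleotides for a set time, and each polymerase is placed by the 3′ end of its labelled RNA. Run-on lasted 0.5, 2, 8 or 32 min with the detergent sarkosyl in the buffer or without it, in 2 replicates, so that 16 libraries formed 4 series of 4 run-on times: sarkosyl replicates 1 and 2 and sarkosyl-free replicates 1 and 2. All groups were the same line with no drug named in the labels, 1 further sample labelled as a treatment was not analysed here, and every value below is a pausing time that the authors fitted for 1 site in 1 series. The time is the reciprocal of a fitted rate, and its unit of time is not stated in the sources used here.

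In human cells the U1, U4, U5, U11 and U12 genes are short and intronless. Their promoters carry a proximal sequence element bound by SNAPc, and the Integrator complex cleaves the nascent RNA just past the end of the mature sequence. The RNAs are then exported, receive a ring of Sm proteins with the help of the SMN complex, and return to the nucleus. U1 recognises the 5′ splice site, U4 pairs with U6 until the spliceosome is activated, and U5 holds the exons, while U11 and U12 recognise the 5′ splice site and the branch point of the minor class of introns.

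The sequences of 8 of the genes, from the GENCODE release 29 transcripts, are shown because the listed sites cluster at particular bases of them. They read 5′ to 3′, and capitals mark the bases listed in 2 or more series. The U1 line serves for all 4 U1 genes, which have identical sequences of 164 bases, at chr1:16514122-16514285 (RNU1-1, minus strand), chr1:16895980-16896143 (RNU1-2, plus), chr1:16666785-16666948 (RNU1-3, minus) and chr1:16740516-16740679 (RNU1-4, plus). RNU4-1 lies at chr12:120293097-120293237 and RNU4-2 at chr12:120291763-120291903, both on the minus strand. RNU11 lies at chr1:28648600-28648733 and RNU12 at chr22:42615244-42615393, both on the plus strand.
U1: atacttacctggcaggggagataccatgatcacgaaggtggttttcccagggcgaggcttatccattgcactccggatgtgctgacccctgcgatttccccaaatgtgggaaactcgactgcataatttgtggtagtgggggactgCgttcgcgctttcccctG
RNU4-1: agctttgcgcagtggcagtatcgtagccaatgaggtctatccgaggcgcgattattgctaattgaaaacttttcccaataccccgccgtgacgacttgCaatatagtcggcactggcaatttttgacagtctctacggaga
RNU4-2: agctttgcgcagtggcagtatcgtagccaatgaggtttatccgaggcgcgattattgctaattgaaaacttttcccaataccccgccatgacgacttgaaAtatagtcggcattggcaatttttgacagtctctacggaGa
RNU11: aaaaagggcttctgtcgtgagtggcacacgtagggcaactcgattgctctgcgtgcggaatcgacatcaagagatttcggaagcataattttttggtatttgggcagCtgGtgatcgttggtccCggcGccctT
RNU12: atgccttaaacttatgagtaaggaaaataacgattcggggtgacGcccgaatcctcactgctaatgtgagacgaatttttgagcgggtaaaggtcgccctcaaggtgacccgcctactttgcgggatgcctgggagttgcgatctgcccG

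A listed base is counted here from 1 at the gene's first base and runs on past its end. The annotated exon of each gene is its whole span, and none has an intron or a coding part. Taken with the 1000 bp past its end, RNU1-2 overlaps CROCC, RNU1-4 overlaps CROCC and CROCCP4, and RNU11 overlaps AL360012.1, all on the same strand. RNU12 makes up the first 150 of the 664 bases of the lincRNA Z93241.1, also on the same strand. A site in such an overlap cannot be assigned to one transcript or the other. RNU4-2 and RNU4-1 differ at 4 of 141 bases (97.2% identity), namely T37C, A88G, A99C and T113C, with the RNU4-2 base first. Reads from copies that share a sequence cannot be told apart, and how the authors placed such reads is not given in the sources used here.

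The Sm site was spelled here AATTTNTG or AATTTNTTG and searched on both strands. It was found in the 8 genes printed, as it was in 678 of 5576 transcripts of 100 to 200 bases (12.2%). Those are all GENCODE transcripts of that length, from which the 8 genes and other snRNA copies were not left out. The Sm site spans bases 125 to 132 of U1, 118 to 125 of both U4 genes, 87 to 95 of RNU11, and 74 to 81 of RNU12. The stretch 3′ of it makes up 23.6% of the length of the 5 different sequences and held 13 of the 25 bases listed in them (52%). In RNU11 that stretch is 29.1% of the length and held 6 of 8 listed bases. In RNU12 it is 46% of the length and held 3 of 6, so the shares were close there. It held 2 of 5 in U1 (19.5% of the length), 1 of 4 in RNU4-1 and 1 of 2 in RNU4-2 (11.3% each).

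The series listed 68 (sarkosyl replicate 1), 73 (sarkosyl replicate 2), 65 (sarkosyl-free replicate 1) and 56 (sarkosyl-free replicate 2) snRNA gene sites, out of 48566, 47713, 66089 and 41769. The median pausing times over all sites of these series were 1.49, 1.34, 2.23 and 8.00, so that sarkosyl-free replicate 2 stood apart in level, and values are also given relative to these medians. Of the 154 distinct sites, 85 were listed in 1 series, 42 in 2, 15 in 3 and 12 in all 4. The share listed in all 4 series was 7.79%, against 1.88% of all distinct sites. The sarkosyl series shared 48 snRNA gene sites, or 70.6% of the shorter list, against 37.8% over all sites. The sarkosyl-free series shared 27, or 48.2% against 33.3%. Across buffers 20 to 22 sites were shared, or 33.8% to 35.7% of the shorter list, against 13.3% to 18.8%. How a site came to be listed is not given in the sources used here, so an unlisted base is not a base without polymerase.

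**Figure D1:**
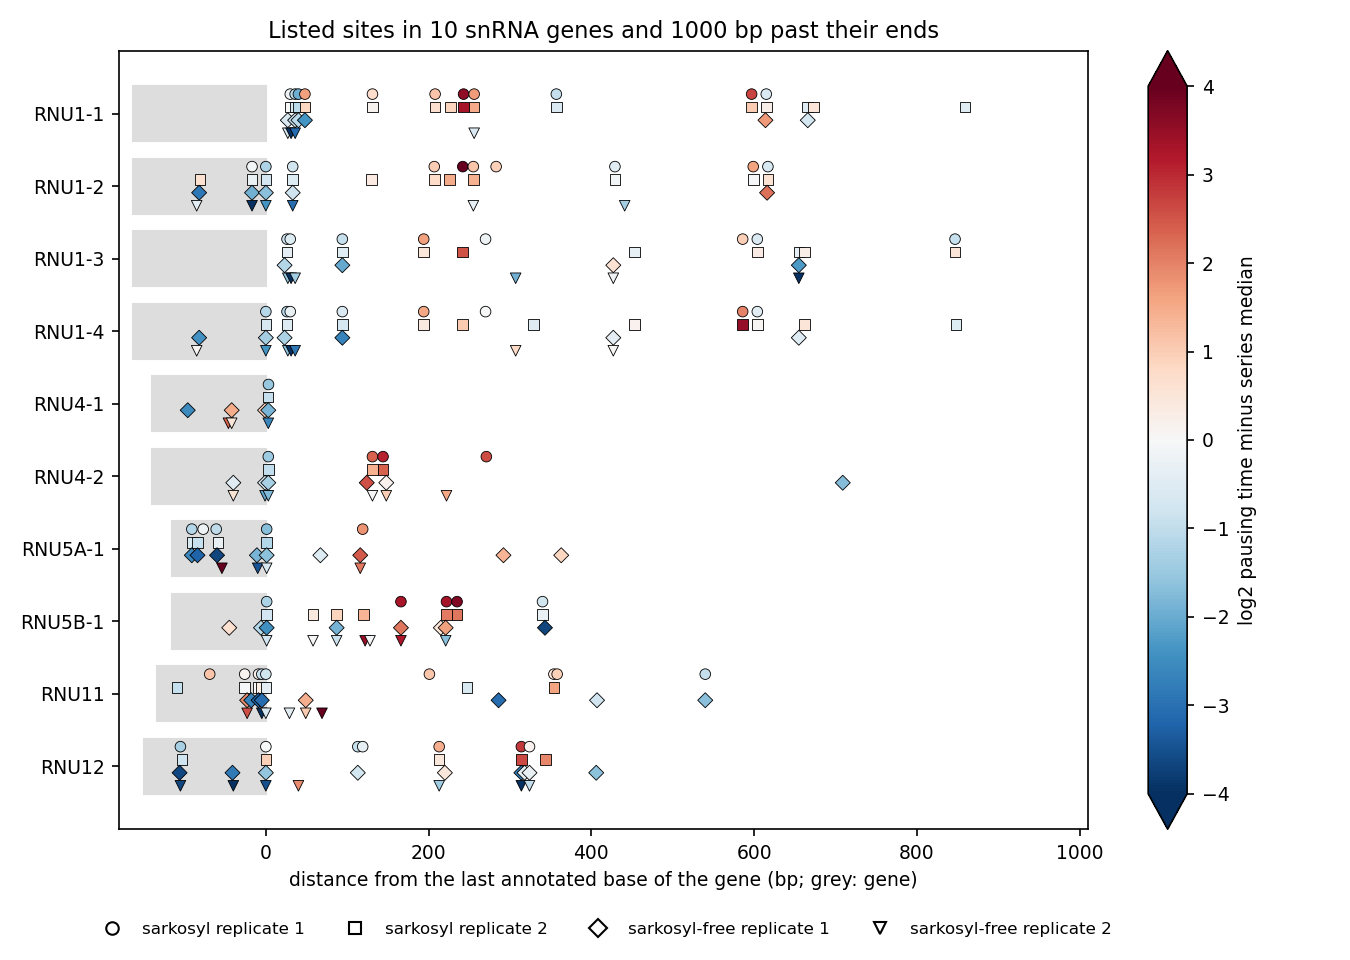
Listed sites of the 10 snRNA genes by distance in bp from the last annotated base (grey: the gene), with 1 row of symbols per series and the colour giving the log2 pausing time minus the median of all sites of that series. RNU1-1 and RNU1-3 have no site within the gene, 8 genes have a site within 4 bp of the end, and between 101 and 400 bp past it 23 of 29 and 22 of 26 symbols of the sarkosyl series lie above the series median, against 9 of 15 and 6 of 15 without sarkosyl.

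The bases at the sites were unevenly distributed. Over 50373 sites in exons the listed base was C in 57.6% and G in 37.6%, together 95.2%, against 68.1% for C or G 1 base before and 35.3% 1 base after. With the identical U1 genes counted once, 25 distinct bases were listed within the printed sequences, of which 22 were C or G (88%), 13 being C and 9 G, while C and G make up 50.4% of these sequences. Positions were read as counting from 1, for which RNU1-3 on the minus strand, with 27 listings summed over the 4 series, and RNU1-4 on the plus strand, with 32, had 23 at the same base of the gene in the same series, against 0 when read as counting from 0.

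The most regular feature of these genes was a site at the 3′ end of the mature RNA with a short pausing time. A site within 4 bp of the annotated end was listed in at least 1 series for 8 of 10 snRNA genes and in all 4 series for 7. Both counts hold RNU1-2 and RNU1-4 as separate genes, although their sequences are identical and their reads there cannot be told apart. The same window held a site for 9 of 11 polymerase III RNA genes, 8 of them in all 4 series, and for 2 of 71 replication-dependent histone genes, none in all 4. These snRNA sites made up 7 of the 12 listed in all 4 series. Those of the 3′ ends described next fell on the last base of the RefSeq model in U1, U5 and U12 and 1 base before it in U4 and U11, where RefSeq extends the GENCODE end by 4 bases (U4) or by 1 (U5, U11). They thus lie at or next to the 3′ end of the stable RNA, and the part that RNA ends not made by run-on play at them was not tested.

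At base 164, the last of U1, RNU1-2 had pausing times of 0.640 and 0.798 with sarkosyl, against 0.701 and 1.51 without it. RNU1-4 had 0.680, 0.847, 0.867 and 1.51 at the same base. All these times lay below the medians of their series, and only 7.16% to 30.8% of a series' sites had shorter times. RNU1-1 and RNU1-3, on the minus strand, had no listed base within the gene in any series although their sequence is the same.

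For U4, base 144 was listed 3 bp past the GENCODE end of both genes. RNU4-1 had times of 0.524 and 0.690 with sarkosyl and 0.608 and 1.31 without. RNU4-2 had 0.545, 0.676, 0.891 and 2.38. In the sarkosyl series these were among the shortest times of all, with 1.11% to 3.45% of sites shorter. For U5, base 117 was listed 1 bp past the end. RNU5A-1 had 0.457 and 0.601 with sarkosyl, where 0.402% and 0.172% of sites were shorter, and 0.721 and 5.03 without. RNU5B-1 had 0.627, 0.801, 0.406 and 4.83. The 2 U5 genes therefore gave like times in sarkosyl-free replicate 2, near 5, above their other 3 times but below that series' median of 8.00. As log2 time minus the series median, RNU5A-1 had -1.71 and -1.16 with sarkosyl and -1.63 and -0.67 without. RNU5B-1 had -1.25, -0.74, -2.46 and -0.73, so its sarkosyl-free replicate 2 value did not stand apart on that scale.

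The end sites of the minor spliceosome genes were as follows. RNU12 base 150, its last base, had longer times with sarkosyl (1.48 and 2.62) than without (0.738 and 0.699). RNU11 base 134 had 0.876 and 1.01 with sarkosyl, was not listed in sarkosyl-free replicate 1, and had 5.08 in replicate 2. RNU12 in sarkosyl replicate 2 was the only value above its series' median among the end sites described so far. A further site lay 1 bp before the GENCODE end of RNU4-1, at base 140. It was listed in sarkosyl-free replicate 1 only, at 4.20, and 64.9% of sites had shorter times.

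**Figure D2:**
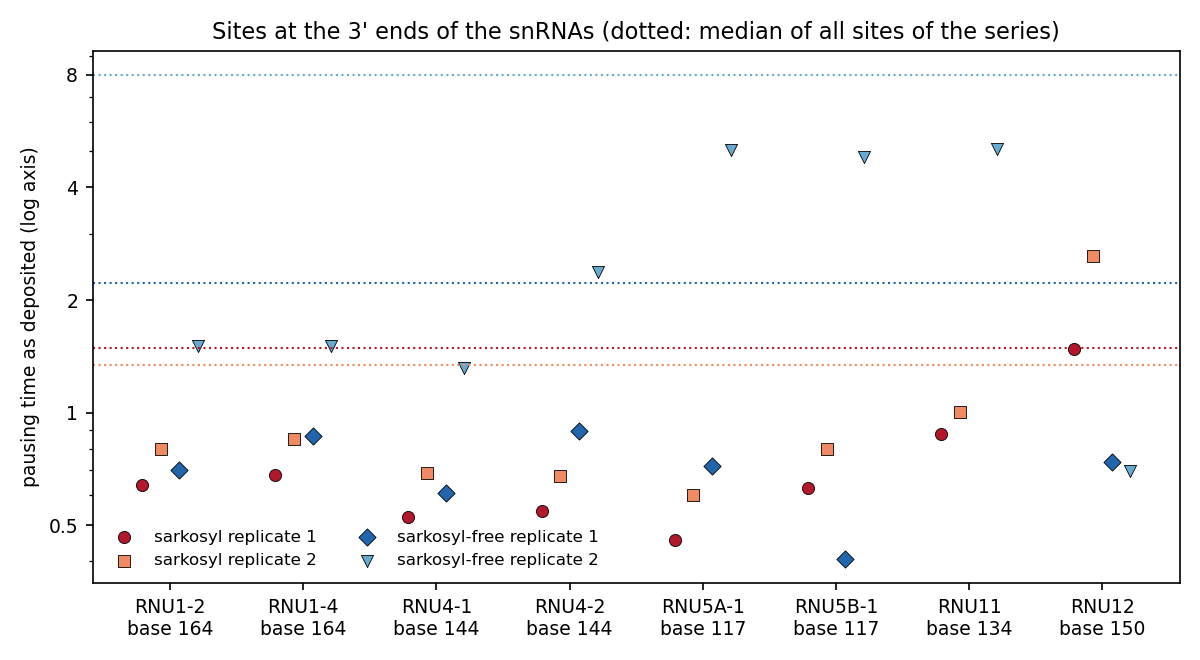
Pausing time as deposited (log axis) at 1 site next to the 3′ end of each of 8 snRNA genes, 1 symbol per series. Dotted lines mark the median of all sites of each series in the same colours. Where a gene had more than 1 such site, the site listed in the most series is shown. Symbols lie below the dotted line of their own series, apart from RNU12 base 150 in sarkosyl replicate 2 (2.62 against 1.34).

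Upstream of the end, RNU11 was the gene with the most recurrent sites within its span. Base 129 had times of 0.789 and 1.65 with sarkosyl and 0.265 and 0.491 without, the groups not overlapping. Base 125 had 1.72, 1.35 and 0.232 and was not listed in sarkosyl-free replicate 2, and base 108 had 1.59 and 1.30 with sarkosyl only. Base 111 was listed without sarkosyl only, at 8.00 and 47.6, so that it was long where bases 125 and 129 were short. In U1, base 147, 17 bp before the end, was listed in RNU1-2 in all 4 series, at 1.38 and 1.12 with sarkosyl and 0.583 and 0.392 without.

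RNU5A-1 and both U4 genes also had recurrent sites within the span. RNU5A-1 base 25 had times of 0.656 and 0.865 with sarkosyl and 0.364 in sarkosyl-free replicate 1, and RNU5B-1 had no site there. RNU4-1 base 99, the C of A99C and so a base that tells the U4 copies apart, was listed without sarkosyl only, at 6.25 and 11.2. RNU4-2 had no site at base 99 and was listed at base 101, at 1.58 and 12, and at base 140, at 1.46 and 1.86, both without sarkosyl only. In the sarkosyl series neither U4 gene had a site within its GENCODE span. The longest time of any snRNA gene site, chosen after the values were seen, was 200 at base 62 of RNU5A-1, listed in sarkosyl-free replicate 2 alone.

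Past the ends of the U1 genes the listed bases recurred between copies. RNU1-1 base 407, 243 bp past the end, had times of 17.5 and 13.5 with sarkosyl and was not listed without it. Base 420 had 4.88 and 3.83 with sarkosyl and 5.41 in sarkosyl-free replicate 2, base 761 had 9.62 and 2.68, and base 212 had 4.69 and 2.46 with sarkosyl against 0.425 in sarkosyl-free replicate 1. Among the RNU1-1 sites that both sarkosyl series listed, base 204 was the shortest, at 0.383 and 0.631, and it had 1.04 in sarkosyl-free replicate 1. RNU1-1 thus held long and short times within 300 bp of its end.

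RNU1-2 showed close counterparts of these sites 1 to 3 bases away in gene position. Its base 419 had times of 3.23 and 3.58 with sarkosyl and 6.17 in sarkosyl-free replicate 2, and its base 371 had 2.99 and 2.29, beside 3.32 and 2.13 at base 372 of RNU1-1. Base 763 had 4.59 and 1.29, and base 781 had 0.947 and 2.06. Its base 406, named with base 372 of RNU1-1 after the values were seen, was listed in sarkosyl replicate 1 only, at 23.8. Both genes also had a short site near the end in all 4 series, at base 200 of RNU1-1 (0.703, 0.850, 1.21 and 0.918) and at base 197 of RNU1-2 (0.885, 0.924, 1.26 and 0.938), which differed little between buffers.

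RNU1-3 and RNU1-4 shared bases rather than neighbouring ones. At base 358, 194 bp past the end, RNU1-3 had times of 4.69 and 1.87 with sarkosyl and RNU1-4 had 4.35 and 1.75. At base 258 RNU1-3 had 0.767 and 0.965 with sarkosyl and 0.534 in sarkosyl-free replicate 1, and RNU1-4 had 0.994, 0.828 and 0.347. At base 591 both were listed without sarkosyl only, at 3.38 and 7.09 in RNU1-3 and at 1.65 and 8.26 in RNU1-4. RNU1-3 base 819 had 0.453 and 0.249 without sarkosyl and 1.03 in sarkosyl replicate 2, while RNU1-4 had 1.58 there in sarkosyl-free replicate 1 only. RNU1-4 base 750 was long with sarkosyl, at 5.92 and 15.4, where RNU1-3 had a time at that base in sarkosyl replicate 1 only. Values at shared bases of these copies are not independent, since the sequence past their ends was not at hand and may be common to both.

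The U4 genes parted past the end. RNU4-1 had no site there other than base 144. RNU4-2, whose RNA is nearly identical, had times of 7.69 and 3.61 with sarkosyl and 8.00 in sarkosyl-free replicate 2 at base 272, 131 bp past the end. Its base 285 had 12.7 and 6.85 with sarkosyl, and its base 289 had 2.50 and 16.1 without. The U5 genes differed in the same way in number: in the sarkosyl series RNU5A-1 shared no site beyond base 117, and RNU5B-1 had base 351 at 19.6 and 5.92, base 338 at 14.9 and 5.71, and base 456 at 0.886 and 1.11. RNU5B-1 base 282, 166 bp past the end, had 14.7 in sarkosyl replicate 1 and 9.80 and 76.9 without sarkosyl, and 85.2% to 98.2% of sites had shorter times. Its base 203 had 2.47 in sarkosyl replicate 2 and 0.595 and 4.35 without sarkosyl. Its base 337 was listed without sarkosyl only, at 6.90 and 2.54. RNU5A-1 base 232 was listed without sarkosyl only, at 12.2 and 34.5.

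Among the genes of the minor spliceosome, RNU11 had base 488 at 2.08 and 4.10 with sarkosyl and base 183 at 6.10 and 16.7 without. RNU12 had base 363, 213 bp past its end, at 4.05 and 1.82 with sarkosyl and 2.97 in sarkosyl-free replicate 2. Base 474 of RNU12 had 1.69 in sarkosyl replicate 1 and 1.80 and 4.02 without sarkosyl. Between these 2 lay base 464, whose values separated the buffers.

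RNU12 base 464 (chr22:42615707, 314 bp past the end) was paused for 10.5 and 8.4 in the sarkosyl replicates but for only 0.327 and 0.376 in the sarkosyl-free ones. Shorter times were held by 92.1% and 97.5% of sites with the detergent, and by 10.9% and 6.43% without. The authors' quartiles gave ranges of 6.10 to 16.9 and 3.80 to 17.2 with sarkosyl, and of 0.158 to 0.641 and 0.174 to 0.775 without, so that the ranges of the buffers did not overlap. Base 474, 10 bases further, was listed in sarkosyl replicate 1 but not in sarkosyl replicate 2. As log2 time minus the series median it had 0.18 there, and -0.31 and -0.99 without sarkosyl, a smaller gap than at base 464. Because the Z93241.1 exon runs on for 514 bases, the sequence of this window was at hand for RNU12. It is printed to show the letters at the sites, with capitals on the bases listed in any series, on the plus strand of GRCh38: the end of the gene and what follows (chr22:42615374-42615443), the surroundings of base 363 (chr22:42615596-42615616) and those of bases 464 to 494 (chr22:42615697-42615747).
RNU12 end: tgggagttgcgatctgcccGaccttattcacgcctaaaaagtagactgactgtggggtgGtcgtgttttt
RNU12 base 363: cagtattgacGttgggaCcca
RNU12 bases 464 to 494: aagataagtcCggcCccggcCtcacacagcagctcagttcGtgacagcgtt

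Pausing times were arranged by distance from the gene end in bins chosen after the values were seen, as log2 time minus the median of the series' sites. In the order sarkosyl replicates 1 and 2 and sarkosyl-free replicates 1 and 2, the median within the gene, more than 20 bp before its end, was -0.60, -0.63, -2.58 and 0.49. The median from 20 bp before to 10 bp past the end was -1.13, -0.66, -1.67 and -2.40, and 1 of 11, 3 of 11, 1 of 15 and 0 of 12 sites lay above the series' median. From 11 to 100 bp past the end it was -0.75, -0.47, -1.13 and -1.50. From 101 to 400 bp it was 1.15, 1.20, 0.45 and -0.07, with 23 of 29, 22 of 26, 9 of 15 and 6 of 15 sites above. From 401 to 1000 bp it was -0.46, 0.21, -0.74 and -0.77. Times were thus shortest around the end and longest between 101 and 400 bp in the sarkosyl series, and the sarkosyl-free series gave the same order for these 2 bins at lower levels. All bins but that from 101 to 400 bp in the sarkosyl series held under 20 sites.

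**Figure D3:**
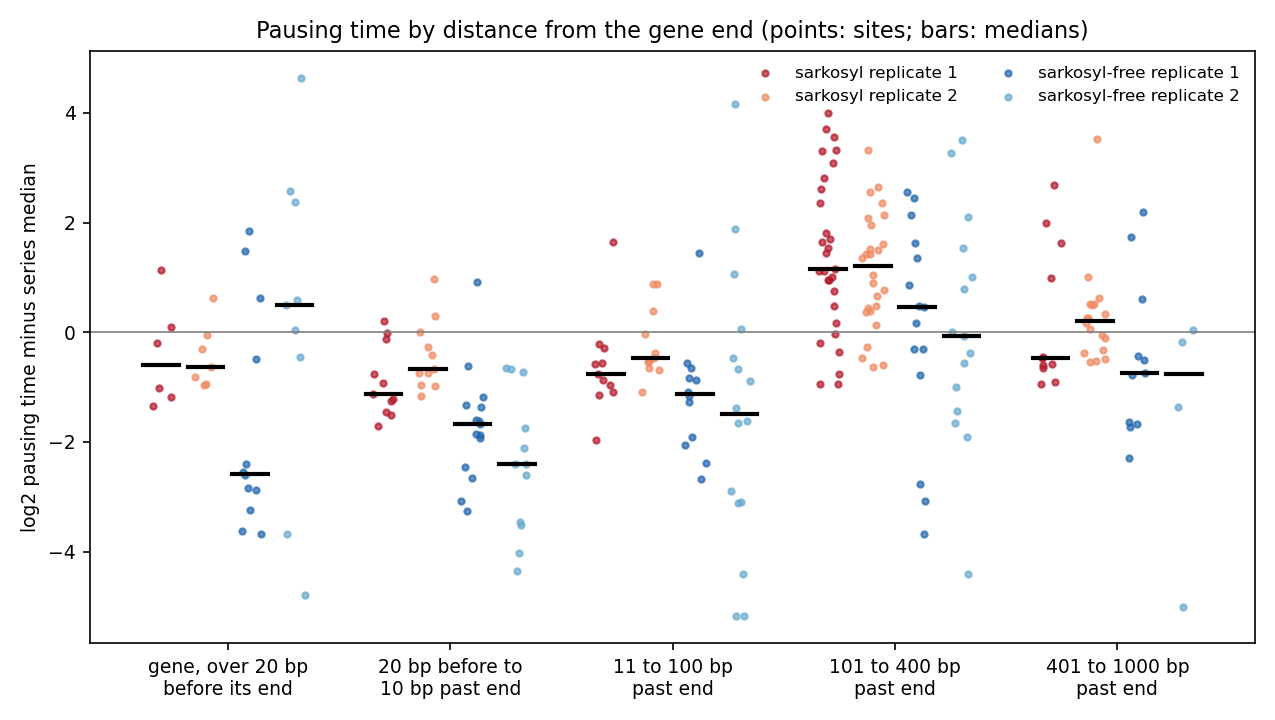
Log2 pausing time minus the series median for each snRNA gene site (points) by distance from the gene end, with the median of each series as a bar and series in the order of the legend. In the sarkosyl series the bin from 101 to 400 bp has medians of 1.15 and 1.20, against -1.13 and -0.66 around the end.

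Past the end the median log2 pausing time exceeded that within the gene by 0.95 and 0.73 with sarkosyl (0.84 ± 0.15, SD, n = 2) and by 1.15 and 1.38 without (1.26 ± 0.16, SD, n = 2). These values compared 13, 14, 23 and 17 sites within the genes with 55, 59, 42 and 39 past them. The sites within came from 5, 5, 8 and 7 genes and those past from all 10, so the 2 sides do not hold the same genes. The buffers differed by -0.43, with an exact two-sided permutation p of 0.33, the smallest that 2 series against 2 allow. In the same windows the polymerase III RNA genes gave -0.23, -0.06, -0.60 and -2.40 (-0.82 ± 1.08, SD, n = 4). These rested on 8, 16, 19 and 16 sites within the genes and only 7, 6, 7 and 5 past them. The histone genes gave -0.58, -0.08, -0.42 and -1.06 (-0.54 ± 0.41, SD, n = 4), from 156 to 466 sites within and 29 to 84 past. The difference was positive in 4 of 4 series for snRNA genes and in 0 of 4 for both other classes, although for snRNA genes sarkosyl-free replicate 2 turned negative under the 4 alternatives given next. The snRNA genes exceeded the polymerase III genes by 1.88 ± 1.33 and the histone genes by 1.59 ± 0.66 (SD, n = 4), with an exact sign-flip p of 0.125 in both cases, which 4 series cannot go below (Benjamini-Hochberg over the 2 comparisons 0.125).

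The snRNA value in the sarkosyl-free series depended on sites that also lie in another gene on the same strand: without them it was -0.40 (mean of 2 series). Its replicate 2 then had -1.15, and it also turned with gene medians as units (-0.53), over the 50% of sites with the smaller relative uncertainty (-0.19) and with positions counted from 0 (-0.44). With sarkosyl it was 1.09 without the overlapping sites, 1.34 without the U1 genes, 1.40 with the RefSeq ends, and 0.19 over the more certain sites.

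**Figure D4:**
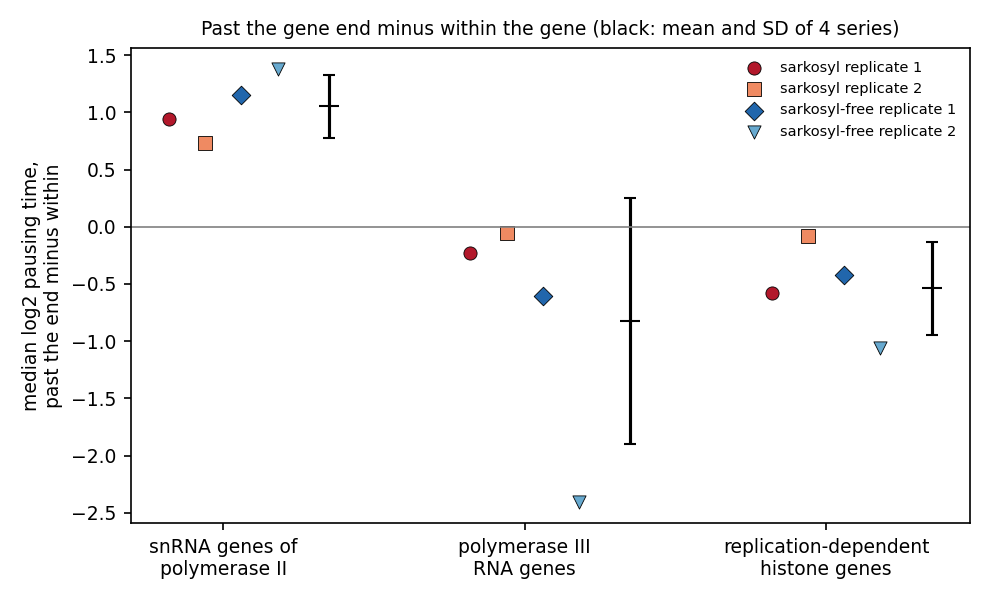
Median log2 pausing time of sites past the gene end minus that of sites within the gene, 1 symbol per series, with the mean and SD of the 4 series in black. The snRNA genes lie between 0.73 and 1.38 and the polymerase III RNA and histone genes below 0 in every series.

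As a group the snRNA gene sites stood near the rest of the series with sarkosyl and below it without. Set against the other sites of the same series, their median log2 time differed by -0.15 and 0.16 with sarkosyl (0.01 ± 0.22, SD, n = 2), and by -1.18 and -0.80 without (-0.99 ± 0.26, SD, n = 2). The buffers differed by 0.997, which again gave the smallest possible exact permutation p of 0.33. Over the 50% of sites with the smaller relative uncertainty the sarkosyl-free value was -0.03 and the difference -0.09. Over the 4 series the mean of -0.49 ± 0.61 (SD) gave an exact sign-flip p of 0.375. Against polymerase III RNA genes the mean was 0.01 ± 0.24 (p = 1) and against histone genes -0.08 ± 0.53 (p = 0.75), both SD with n = 4 and the same exact test, and the Benjamini-Hochberg value over the 3 comparisons was 1 for each.

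The order of the genes differed between series, also between replicates of one buffer. The gene median, as log2 time minus the series median, was highest for RNU5B-1 in sarkosyl replicate 1 (3.30, 5 sites) and for RNU4-2 in replicate 2 (1.43, 3 sites), whose values in the other sarkosyl series were 0.88 and 2.49. It was lowest for RNU4-1 in both, at -1.51 and -0.96, which rested on base 144 alone. Without sarkosyl RNU11 had the lowest median of replicate 1, at -2.17 (8 sites), but 0.30 in replicate 2 (6 sites), where RNU12 had the lowest, at -3.52 (7 sites). RNU12 had -1.59 (9 sites) in sarkosyl-free replicate 1, against -0.01 and 0.97 with sarkosyl. RNU5B-1 then had -0.35 and -0.07, and RNU4-2 had -0.55 and 0.30. With 1 to 15 sites per gene and series, neighbouring genes in these orders cannot be told apart beyond the spread between the 2 series.

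The authors' spread of the fitted rates was close to that of other sites. The upper quartile of the rate was 2.66, 3.40, 3.84 and 2.52 times the lower one at the median snRNA gene site, in the order of series used above, and 2.75, 3.26, 3.44 and 2.22 times at the median of all sites. The depth behind the fitted times is unknown.

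To compare the buffers site by site, limma was fitted to the log2 times of the 2967 sites listed in all 4 series, 12 of them in snRNA genes, after centring each series on its median. No site passed an adjusted p of 0.05 by limma with Benjamini-Hochberg adjustment, which is 0% of the 2967 and 0 of the 12. At an unadjusted p under 0.05 limma had 689 sites, or 23.2%, and 1 of the 12. After centring, both sarkosyl values lay above both sarkosyl-free values at 4 of the 12 snRNA gene sites, against 31.6% of all sites, and below them at 2, against 25.7%. The snRNA shares are thus near those of all sites. The median difference, sarkosyl minus sarkosyl-free on the log2 scale, was -0.35 for the 12 and 0.22 for all.

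RNU12 base 464 had a log2 difference of 4.88 (SE 0.71), an unadjusted p of 5.67e-04 and, by limma, an adjusted p of 0.155. That adjusted value was the smallest reached, 121 sites shared it, and 3 sites had a smaller unadjusted p. The site passed the threshold by limma with quantile normalization (adjusted p = 0.042), where 158 sites passed, and without sarkosyl-free replicate 1 (adjusted p = 0.00801) or replicate 2 (adjusted p = 0.0271), where 1597 and 660 sites passed. It did not pass without sarkosyl replicate 1 (adjusted p = 0.981) or sarkosyl replicate 2 (adjusted p = 0.439). The other sites with non-overlapping centred values were RNU11 base 129, at 1.80 (SE 0.80), RNU12 base 150, at 1.59 (SE 0.74), and RNU1-2 base 147, at 1.51 (SE 0.74), all longer with sarkosyl, and RNU5A-1 base 117, at -1.72 (SE 1.06), and RNU4-2 base 144, at -1.13 (SE 0.80), both shorter with it. Their adjusted p by limma ranged from 0.243 to 0.427. The remaining 6, among them the last base of U1 in both genes, had differences of -0.85 to -0.13. Without sarkosyl-free replicate 1 the differences were -3.07 for RNU5A-1, -2.57 for RNU5B-1, -1.77 for RNU4-2 base 144 and 1.86 for RNU1-2 base 147.

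**Figure D5:**
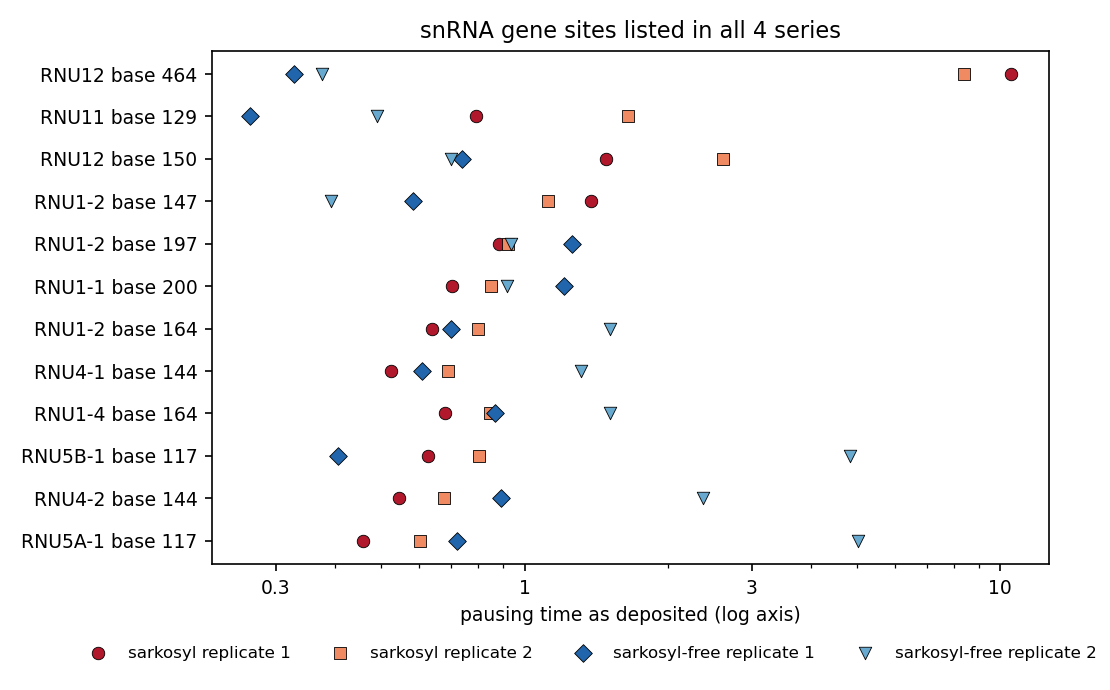
Pausing time as deposited (log axis) at the 12 snRNA gene sites listed in all 4 series, 1 symbol per series, ordered from top to bottom by the limma difference between buffers. RNU12 base 464 has sarkosyl values of 8.4 and 10.5 and sarkosyl-free values of 0.327 and 0.376. The 4 end sites of the U4 and U5 genes have their longest time in sarkosyl-free replicate 2, the series with the highest median. The same holds for base 164 of RNU1-2 and RNU1-4.

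Agreement within a buffer was read from the sites that both of its series listed. Of the 48 shared with sarkosyl, 12 lay among the shortest 25% of both series, against 13.2% of all such sites, and 10 among the longest 25% of both, against 16% of all. The former included the end sites of RNU1-2, RNU1-4, RNU4-1, RNU4-2, RNU5A-1 and RNU5B-1. Those of RNU1-2 and RNU1-4 are not independent, since the sequences of these genes are identical. Of the 27 shared without sarkosyl, 5 lay among the shortest 25% of both, against 10.7%, and 3 among the longest, against 10.1%.

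The genes that serve snRNA synthesis were described with the same values, over their whole spans and up to 1000 bp past their ends. SNAPc and the factors that act with it at snRNA promoters (13 genes) had 31, 32, 51 and 20 sites, with medians of -0.01, -0.07, 0.66 and 0.40 as log2 time minus the series median. ZNF143, an activator of snRNA promoters, had the shortest median of this list in both sarkosyl series, at 0.664 and 0.808 (2 sites each). In sarkosyl-free replicate 1 ZNF143 had 2.54 (3 sites), which is 0.19 above the series median. Integrator (16 genes) had 43, 44, 60 and 53 sites and medians of -0.69, -0.37, -0.01 and 1.01. INTS7, one of its subunits, had its longest median in both sarkosyl series, at 3.75 (2 sites) and 2.22 (5 sites). In the latter NABP2 was close, at 2.19 (2 sites). Without sarkosyl INTS7 had 0.850 (6 sites) and 19.6 (10 sites), which are -1.39 and 1.30 relative to the series medians.

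The little elongation complex with the capping and export factors (9 genes) had 29, 24, 43 and 21 sites and medians of 0.49, 0.05, -0.52 and 0.32. PHAX, the adaptor for snRNA export, had the longest median of that list in sarkosyl replicate 1 (32.3, 3 sites) and the shortest in sarkosyl-free replicate 2 (0.559, 2 sites). The SMN complex and Sm proteins (17 genes) had 54, 63, 125 and 71 sites and medians of 0.04, 0.25, 0.08 and 0.78. GEMIN5, the subunit that binds snRNAs, had the shortest median of the list in sarkosyl replicate 2 (0.879, 1 site) and in both sarkosyl-free series (0.279 and 1.63, 3 sites each). Of the sites tested by limma these lists held 2, 4, 1 and 2, and 0 were called in either direction, against 0% of all sites, with 2 of these 9 at an unadjusted p under 0.05, against 23.2% of all sites.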

How the data were processed

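Per the submitters' processing notes, reads were handled with cutadapt 1.14, HISAT2 2.1.0, SAMtools and bedtools on hg38; the model that gave the rates, its prior and the calling of sites are not given in the sources used here. Per the file headers, the deposited scores are the mean, SD, Monte Carlo error, quartiles and median of a fitted rate for each site, rounded to 3 decimals, and a pausing time, which in every row was the reciprocal of the median. The 4 tables were assigned to buffer and replicate by their names. The series' design text calls the replicates biological duplicates.

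Sites were joined to GENCODE release 29 by strand and position. Times were compared as log2 values relative to their own series, since the levels of the series differ, and no site was dropped for a low value. Series, not sites, were the replicates in exact permutation and sign-flip tests; limma 3.58.1 in R 4.3.3 was fitted to all sites listed in the 4 series (default prior, Benjamini-Hochberg, threshold 0.05). On simulated data for this comparison (2967 sites, 200 changed) at the observed spread it recovered 0 at a log2 change of 2 and 117 at 6. The sequences of the U5 genes are not reported here. The members and lists were chosen with earlier results of these data known. All 10 genes are described. Named sites were drawn mainly from those that all 4 series or both series of a buffer list, up to the 4 longest and the shortest. Some sites that met this rule are not named. List genes were named for the longest or shortest median of their list, and not every such gene is named. Other steps used Python 3.11.15, pandas 2.3.3, numpy 2.4.6, scipy 1.17.1 and matplotlib 3.10.9. The alternatives were other windows, left-out genes, series or uncertain sites, other summaries, positions from 0, and other limma settings.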

Additional observations from a re-analysis of the deposited data

Results flagged for a closer look

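RNU12 base 464, 314 bp past the end of the U12 gene, stood above the median of all sites in both sarkosyl series and below it in both sarkosyl-free series. Relative to the series medians, the log2 pausing time was 6.32 higher with sarkosyl than without, with 2.82 and 2.65 in the former and -2.77 and -4.41 in the latter. The difference itself was tested by limma only, after centring on the shared sites, and did not pass (adjusted p = 0.155).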

How the results depend on the processing

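All values are log2 unless they are counts, and the exact tests here, whatever the setting, could not go below the p values given above. Of the alternatives for the group comparisons and the count of sites, 59 gave the same reading, 16 moved a value and 6 turned a direction; for single sites the numbers were 96 the same, 8 newly past the threshold and 4 turned. The median of snRNA gene sites minus all other sites moved over the more certain 50% of sites only, to -0.0339 without sarkosyl, with the buffer difference turning to -0.0925. The difference past the end minus within the gene moved with sarkosyl to 0.995 (500 bp window), 1.09 (without sites in another gene on the same strand), 1.34 (without the U1 genes), 0.19 (more certain sites) and 0.39 (positions from 0). After seeing the data, the RefSeq ends (1.40) and leaving out sites 1 to 10 bp past the end (1.13) were added. Without sarkosyl it moved to 0.33 (more certain sites), 0.31 (gene medians), 0.71 (mean over sites) and 0.61 (positions from 0) and turned to -0.40 without sites in another gene. Its buffer difference of -0.43 turned to 1.5 without those sites, 0.57 with gene medians, 0.20 with the mean and 0.26 with RefSeq ends. Leaving out 1 series at a time, it ranged from 0.73 to 0.95 with sarkosyl, 1.15 to 1.38 without and -0.54 to -0.32 between buffers. The cause of these shifts was not tested.

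The limma count of 0 became 158 with quantile normalization (80 longer with sarkosyl), stayed 0 without centring, with a trended robust prior and without mitochondrial sites, and ranged from 0 to 1597 when 1 series was left out. A fit that leaves out 1 series assumes that the lone series of that buffer varies like the other buffer. Over the series left out, the difference ranged from -0.88 to 0.11 at RNU1-2 base 164, from -0.93 to 0.063 at RNU4-1 base 144 and from -2.57 to 0.88 at RNU5B-1 base 117, turning without sarkosyl-free replicate 2, and from -0.40 to 0.14 at RNU1-2 base 197, turning without sarkosyl-free replicate 1.

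With the replicate number as a block limma called 161 sites (82 longer with sarkosyl), among them RNU12 base 464 (adjusted p = 0.00285). Same-numbered series did not deviate together: as a description over the shared sites, replicate 1 minus replicate 2 with sarkosyl and without correlated at 0.0134. Paired by number, the group comparisons kept buffer differences of 0.997 and -0.43, with exact sign-flip p of 0.5, the smallest that 2 pairs allow. The unknown depth sets no interval on any single time beyond the authors' quartiles.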

Other observations

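Upstream of the 10 genes, in the 300 bp before the start on the same strand and outside the windows used above, only the U1 genes had listed sites, and these lay 108 to 130 bp before the first base. At 118 bp RNU1-3 had pausing times of 0.750 and 0.699 with sarkosyl and 24.4 in sarkosyl-free replicate 2. RNU1-4 had 1.05 and 0.957 against 58.8, and RNU1-2 had 0.883 in sarkosyl replicate 1 against 55.6. These 3 bases were not listed in sarkosyl-free replicate 1, where RNU1-1 had 22.2 at 128 bp. The sarkosyl values at 108 to 130 bp ranged from 0.699 to 1.38. No time as long as these sarkosyl-free ones was seen at the ends of RNU1-2 and RNU1-4, where base 164 had 1.51 in sarkosyl-free replicate 2. RNU1-1 and RNU1-3 had no listed base within the gene and so gave no end value to compare. No test was made, since each sarkosyl-free value stands in 1 series only and the copies share sequence.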
